A study of Mus musculus with 172 samples.

Results

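Expression of the FGF/ERK circuit was examined in single cells of control and OCT4-deficient mouse inner cell masses (ICMs). The circuit was taken as 10 genes picked by symbol, of the 49671 genes in the count files: the ligand Fgf4, the receptors Fgfr1, Fgfr2, Fgfr3 and Fgfr4, and the transcriptional ERK targets Etv4, Etv5, Spry2, Spry4 and Dusp6. The cells came from 19 blastocysts, the offspring of matings between Oct4+/- mice of mixed genetic background, in which Oct4 (Pou5f1) was intact (WT), lost from one allele (HET) or null (MUT). The trophectoderm (TE) was lysed by immunosurgery and used for genotyping, single ICM cells were picked by pipette, and libraries were made by Smart-seq2, which tags neither the strand nor the molecule. At embryonic day (E) 3.5 there were 58 cells from 7 WT/HET embryos (5 WT and 2 HET) and 29 cells from 4 MUT embryos. At E4.5 the authors assigned control cells of 2 WT and 4 HET embryos, from these transcriptomes, to epiblast (EPI, 37 cells) or primitive endoderm (PrE, 29 cells), and 19 cells came from 2 MUT embryos. Raw counts were added up per embryo and class, giving 25 sums of 2736296 to 17453036 counts. A level is in CPM, the count scaled to the library total after TMM over the 25 sums, and n counts embryos.

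FGF4 is secreted by pluripotent cells of the early blastocyst and binds FGF receptor tyrosine kinases, which signal through RAS and the kinases MEK and ERK. FGFR1 is carried by ICM cells at large and FGFR2 by the PrE lineage and by TE, and FGF signaling directs uncommitted ICM cells to PrE. ERK activity switches on the ETS factors Etv4 and Etv5 and the inhibitors Sprouty (Spry2, Spry4) and DUSP6, an ERK phosphatase, so that their transcripts are widely used as a readout of the pathway.

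The targeted gene matched the labels, since Pou5f1 was at 5.96, 3.63, 2.76 and 4.85 CPM in the 4 E3.5 MUT embryos against 205 to 432 CPM (median 267, n = 7) in WT/HET, and had no count in either E4.5 MUT embryo. All E4.5 cells were on one plate and all E3.5 cells on another, so stage and plate cannot be told apart and no test between stages of the controls is given. The PrE sum of embryo 6 held 2 cells. Summed levels of 14 TE markers were 4428 to 6119.6 CPM in the 2 E4.5 MUT embryos, 60.1 to 162 CPM in EPI and 138 to 513 CPM in PrE. At E3.5 they were 687 to 1527 CPM in MUT and 246 to 1021 CPM in WT/HET. All 14 had counts in E4.5 MUT and in E3.5 WT/HET, 13 in E3.5 MUT, 12 in PrE and 11 in EPI. The 12 PrE markers summed to 3277 to 8322 CPM in PrE and 971 to 979.7 CPM in E4.5 MUT, where Sox7 and Foxa2 were at 0. The 12 EPI markers summed to 2829 to 4324 CPM in EPI and 970.3 to 2146 CPM in E4.5 MUT, where Gdf3 was at 0. Fewer cells of a type and less RNA per cell cannot be told apart in such sums, and the part of the marker differences in the results below was not tested.

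The 250 bases before the RefSeq start site (GRCm38.p6) are shown for the ligand and the ETS target that were both lower in E3.5 MUT, and for Dusp6, a target that was not. They lie at chr7:144861136-144861385 on the plus strand (Fgf4), chr16:22439571-22439820 on the minus strand (Etv5, the first of its 2 listed starts) and chr10:99262981-99263230 on the plus strand (Dusp6). Those of Fgf4 and Etv5 fall partly or wholly inside longer GENCODE gene models. Capitals mark matches on either strand to the GC box GGGCGG and to CCAAT, and no 2 matches shared a base.
Fgf4: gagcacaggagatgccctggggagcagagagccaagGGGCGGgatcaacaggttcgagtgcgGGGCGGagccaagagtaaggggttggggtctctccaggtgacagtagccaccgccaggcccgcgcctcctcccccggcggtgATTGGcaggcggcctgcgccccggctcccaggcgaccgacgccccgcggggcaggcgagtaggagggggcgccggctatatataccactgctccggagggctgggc
Etv5: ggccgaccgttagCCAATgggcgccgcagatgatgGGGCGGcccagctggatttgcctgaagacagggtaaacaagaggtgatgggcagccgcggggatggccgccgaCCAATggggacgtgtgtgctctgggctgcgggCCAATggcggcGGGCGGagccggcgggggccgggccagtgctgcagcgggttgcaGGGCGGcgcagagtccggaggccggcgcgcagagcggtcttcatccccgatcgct
Dusp6: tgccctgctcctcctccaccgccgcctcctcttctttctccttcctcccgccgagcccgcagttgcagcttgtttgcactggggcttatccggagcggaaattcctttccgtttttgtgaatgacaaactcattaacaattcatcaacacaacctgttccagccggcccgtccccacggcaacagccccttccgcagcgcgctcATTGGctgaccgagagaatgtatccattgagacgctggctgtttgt
The Fgf4 window held 2 GC boxes, at 214 and 188 bases before the start, and 1 CCAAT match. The Etv5 window held 3 of each, and the Dusp6 window 1 CCAAT match. Of 32851 promoter windows of this length, 32.7% held a GC box and 33.8% a CCAAT match. The octamer ATGCAAAT, held by 1.6% of all windows, was in none of the 9 windows listed for 7 of the 10 genes, and the ETS core CCGGAA, held by 12%, was in 1 of them (Fgfr4). These matches describe letters and are no evidence on binding.

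For ligand, receptors and targets, edgeR's quasi-likelihood test was run on the embryo sums, and a gene was called at a Benjamini-Hochberg adjusted p under 0.05 over all genes tested. In E3.5 MUT against WT/HET, 3 of the 9 circuit genes tested were lower (Fgf4, Etv5 and Spry2) and none higher, where 3.2% of the 12075 genes tested were called higher and 2.98% lower. In E4.5 MUT against EPI, 2 of 9 were lower (Etv4 and Etv5), where 2.3% of the 12953 genes tested were called higher and 2.62% lower. In E4.5 MUT against PrE, 1 of 10 was higher (Fgfr2), where 1.74% of the 12246 genes tested were called higher and 2.07% lower. Against whole WT/HET ICMs of E4.5, with EPI and PrE cells added together, Fgfr2 was higher and Etv4 and Etv5 were lower of 10, where 3.1% of the 14105 genes tested were called higher and 4.27% lower. In EPI against PrE, Fgf4 and Etv5 were higher of 9, where 4.61% of the 9762 genes tested were called higher and 5.2% lower. These E4.5 comparisons share the 2 MUT or the 6 control embryos. The EPI and PrE classes were drawn from these same transcriptomes, so their difference describes the classes and is no independent test. The median log2 fold change of the 9 genes at E3.5 was -0.52, beside -0.02 over all genes tested, and in E4.5 MUT it was 0.20 from EPI and 0.23 from PrE, beside -0.03 and 0.05.

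**Figure D1:**
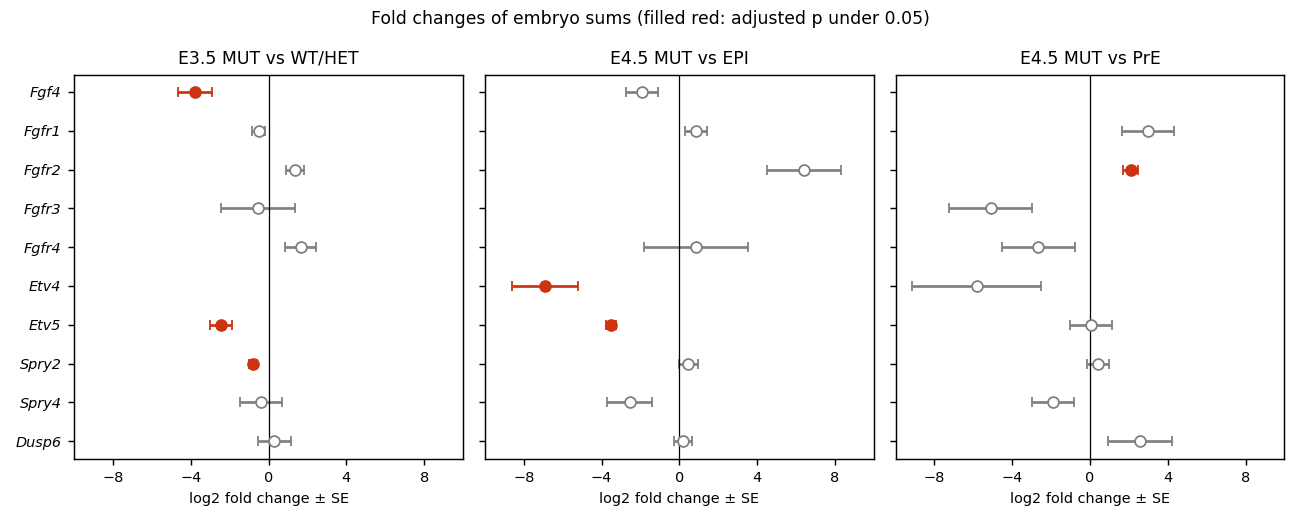
Log2 fold change ± SE (x axis) of each gene (y axis) from the embryo sums in 3 comparisons with MUT, as fitted by edgeR. Filled red points passed an adjusted p of 0.05 and open gray points did not, with genes not tested or with 3 or fewer counts in a whole group left out. The 3 red points at E3.5 (Fgf4, Etv5, Spry2) lie left of 0 and the red point against PrE (Fgfr2) right of it.

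Fgf4 (ENSMUSG00000050917, chr7:144847367-144865243, plus strand, GENCODE M21 on GRCm38), the ligand, was lower in E3.5 MUT ICMs. Its level was 17.8 to 86.5 CPM (median 36.7, n = 7) in WT/HET embryos, with 3723 counts in all, and 0, 8.78, 2.41 and 0.416 CPM in MUT embryos 10, 12, 17 and 19. The groups did not overlap, and one MUT embryo had no count. The means were 41.9 ± 21.2 CPM (SD, n = 7) and 2.9 ± 4.06 CPM (SD, n = 4), a log2 fold change of -3.79 ± 0.90 (SE, adjusted p = 0.027). The call was lost without MUT embryo 17 (adjusted p = 0.0711) or WT embryo 14 (adjusted p = 0.0549), the control with the highest level.

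At E4.5 Fgf4 was found in EPI and not in PrE. It was at 14 to 125 CPM (median 73.9, n = 6) in EPI, while none of the 6 PrE sums held a count. With PrE set at 3 counts over the group, EPI was at least 1238-fold higher (adjusted p = 8.26e-05). The E4.5 MUT embryos 3 and 8 had 30.2 and 8.54 CPM, the first within the EPI range and the second below it, with a log2 fold change from EPI of -1.93 ± 0.82 (SE, adjusted p = 0.236) and from whole control ICMs of -1.07 ± 0.81 (SE, adjusted p = 0.472). The MUT embryos held 610 Fgf4 counts, at least 345-fold more than PrE on the same floor. The edgeR test did not call this difference (adjusted p = 0.0777), whereas DESeq2 did (adjusted p = 0.00385), as did limma on the mean log2(CPM + 1) of the cells (adjusted p = 0.00404) and a fit of EPI, PrE and MUT as 3 groups (adjusted p = 0.000511). Ordered by mean, Fgf4 ran from EPI (70.8 CPM) through E3.5 WT/HET (41.9), E4.5 MUT (19.4) and E3.5 MUT (2.9) to PrE at 0. The ranges of all neighbors in this order overlapped.

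**Figure D2:**
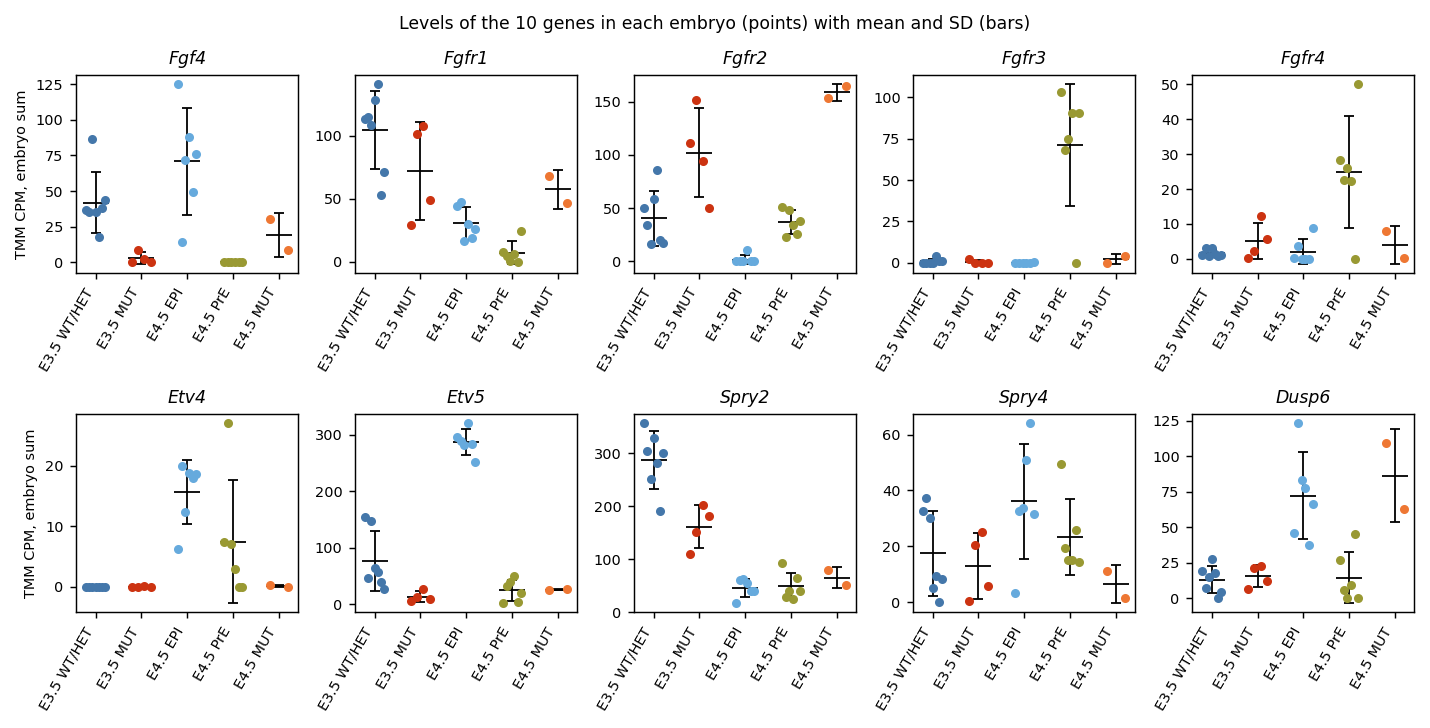
TMM-scaled CPM (y axes, linear) of the 10 genes in each embryo sum (points), by class (x axes), with the mean (black bar) and SD (whiskers) over embryos. Fgf4 is at 0 in all 6 PrE sums, Fgfr2 reaches 153 and 164 CPM in the 2 E4.5 MUT embryos, and Etv5 lies at 251 to 321 CPM in EPI and at 26.4 CPM or less in E4.5 MUT.

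Fgfr1 (ENSMUSG00000031565, chr8:25513654-25575718, plus strand), the receptor detected in every control ICM cell of E3.5, was not called between MUT and controls at either stage. At E3.5 it was at 53.2 to 142 CPM (median 113, n = 7) in WT/HET and 29.2, 102, 108 and 49.1 CPM in the MUT embryos. The groups overlapped (log2 fold change -0.52 ± 0.35 SE, adjusted p = 0.443). At E4.5 it was at 68.5 and 46.6 CPM in the 2 MUT embryos, 16.5 to 47.2 CPM (median 28, n = 6) in EPI and 0 to 24.7 CPM (median 4.9, n = 6) in PrE. Both MUT embryos lay above every PrE sum, and the lower one within the EPI range. Its log2 fold change was 0.86 ± 0.55 (SE, adjusted p = 0.423) from EPI and 2.98 ± 1.35 (SE, adjusted p = 0.314) from PrE, and between EPI and PrE 2.08 ± 0.96 (SE, adjusted p = 0.223). Scaled over whole ICMs, the MUT embryos had 44.4 and 64.1 CPM and the controls 9.39 to 26 CPM (median 20.4, n = 6), without overlap. The log2 fold change of 1.57 ± 0.43 (SE, adjusted p = 0.0588) just missed the threshold there, and it was called by DESeq2 (adjusted p = 0.0108), among genes of 10 CPM or more (adjusted p = 0.0375) and without 9 shallow cells (adjusted p = 0.049). By mean level, E3.5 WT/HET (105 CPM) was followed by E3.5 MUT (72), E4.5 MUT (57.5), EPI (30.4) and PrE (7.14), with overlap between all neighbors.

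Fgfr2 (ENSMUSG00000030849, chr7:130162451-133123350, minus strand), the receptor of PrE and TE, was higher in MUT ICMs at E4.5. Its level was 153 and 164 CPM in the 2 MUT embryos, above every one of the other 23 sums. PrE sums held 23.2 to 51.4 CPM (median 35.7, n = 6), and the log2 fold change from PrE was 2.10 ± 0.38 (SE, adjusted p = 0.0166). This call was lost without MUT embryo 3 (adjusted p = 0.103) or 8 (adjusted p = 0.125), in the limma fit (adjusted p = 0.152), in the 3-group fit (adjusted p = 0.513) and against the 2 WT embryos alone (adjusted p = 0.168). In whole control ICMs of E4.5 Fgfr2 was at 4.61 to 32.4 CPM (median 17.2, n = 6) and in MUT at 143 and 157 CPM on that scale, a log2 fold change of 3.11 ± 0.51 (SE, adjusted p = 0.00762). Against the 2 WT embryos alone it was 3.68 (adjusted p = 0.145). The TE marker sum was also highest in these 2 MUT embryos (4428 to 6119.6 CPM), and its part in this result was not tested.

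EPI stood at the other end for Fgfr2. In EPI, 4 of 6 sums had no count, embryo 7 had 1 count, and embryo 5 had 10.4 CPM, all from 1 cell. The difference of MUT from EPI was not called (log2 fold change 6.41 ± 1.91 SE, adjusted p = 0.0837). Without embryo 5 it was called (adjusted p = 0.000257), as it was in the limma fit (adjusted p = 0.000114) and the 3-group fit (adjusted p = 0.0321). Fgfr2 was also lower in every EPI sum than in any PrE sum, at a log2 fold change of -4.37 ± 1.56 (SE, adjusted p = 0.104). It was called there with the embryo as a block (-9.01, adjusted p = 0.0203), by DESeq2 (adjusted p = 0.0106), by limma (adjusted p = 0.000154) and without embryo 5 (adjusted p = 0.000155).

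At E3.5 the 4 MUT embryos had 111, 151, 94.2 and 50.3 CPM of Fgfr2 and WT/HET embryos 16.2 to 85.7 CPM (median 33.9, n = 7). One MUT embryo lay within the control range and 3 above it. At 1.36 ± 0.45 (SE, adjusted p = 0.096), the log2 fold change missed the threshold, and it was passed with DESeq2 (adjusted p = 0.0345), limma (adjusted p = 0.026), comparison against WT embryos alone (adjusted p = 0.030) and without HET embryo 16 (adjusted p = 0.0426), the control with the highest level (85.7 CPM). By mean, E4.5 MUT (159 CPM) was followed by E3.5 MUT (102), E3.5 WT/HET (40.3), PrE (36.6) and EPI (1.74). E3.5 MUT, E3.5 WT/HET and PrE overlapped with their neighbors among these 3, and E4.5 MUT and EPI stood apart at the ends.

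Fgfr3 (ENSMUSG00000054252, chr5:33721674-33737068, plus strand), a receptor that was sparse outside PrE, was not called in any main edgeR fit that tested it. EPI against PrE was not among these. It was at 0 to 103 CPM (median 82.6, n = 6) in PrE, where the 2-cell sum of embryo 6 was at 0 and the other 5 were at 68.3 CPM or more. In EPI a single count was found in 6 embryos, so that the share of Fgfr3 counts in PrE was 4955 times that in EPI, with a 95% counting interval of 889 to 195750. This interval treats pooled reads as independent and covers no spread between cells or embryos. The filter on low counts left Fgfr3 out of EPI against PrE. It was tested and called lower in EPI with no filter, among genes of 10 CPM or more, without embryo 6 or its 2-cell sum, and in the 3-group fit. The 2 E4.5 MUT embryos had 0 and 4.19 CPM, below the 5 PrE sums with counts, and the difference from PrE was not called (log2 fold change -5.11 ± 2.14 SE, adjusted p = 0.27), nor that from whole control ICMs (log2 fold change -4.12 ± 2.17 SE, adjusted p = 0.308). MUT against EPI was left out by the filter. At E3.5 no embryo exceeded 4.07 CPM (log2 fold change -0.54 ± 1.92 SE, adjusted p = 0.916).

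Fgfr4 (ENSMUSG00000005320, chr13:55152640-55168759, plus strand) also had its highest levels in PrE and was called in no comparison. It was at 0 to 50.2 CPM (median 24.3, n = 6) in PrE, 0 to 8.74 CPM (median 0.116, n = 6) in EPI and 7.91 and 0.161 CPM in the 2 E4.5 MUT embryos. Apart from embryo 6, which was at 0, every PrE sum lay above every EPI and MUT sum. The log2 fold change was -2.66 ± 1.88 (SE, adjusted p = 0.562) for MUT from PrE and -3.56 ± 1.65 (SE, adjusted p = 0.229) for EPI from PrE, of which limma called the second (adjusted p = 0.0182). From EPI the MUT embryos differed by 0.86 ± 2.66 on the log2 scale (SE, adjusted p = 0.926) and from whole control ICMs by -1.76 ± 1.85 (SE, adjusted p = 0.633). At E3.5 it was at 0.291, 2.27, 12.3 and 5.69 CPM in MUT and 0.941 to 3.15 CPM (median 1.14, n = 7) in WT/HET, which overlapped (log2 fold change 1.65 ± 0.80 SE, adjusted p = 0.259). Means ran from PrE (24.9 CPM) through E3.5 MUT (5.14), E4.5 MUT (4.03) and EPI (2.09) to E3.5 WT/HET (1.67), with overlap between all neighbors. In the gene models Fgfr1 shares 164 exon bases with the antisense gene Gm16159 and Fgfr3 998 with G630022F23Rik, each on the other strand. Fgfr2 shares 314 with Ctbp2 on the same strand. Unstranded reads within shared bases cannot be assigned to 1 gene, and reads listed as ambiguous stayed out of the tests.

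To compare receptors with each other, levels were divided by exon length (CPM per kb). The 4 receptors summed to 15.1 ± 5.59 CPM per kb in E3.5 WT/HET, 18.7 ± 6.94 in E3.5 MUT, 3.84 ± 1.71 in EPI, 21.3 ± 10.5 in PrE and 22.6 ± 1.92 in E4.5 MUT (SD over 7, 4, 6, 6 and 2 embryos). EPI stood lowest, with 1.67 to 5.79 CPM per kb, and of all other sums only that of 2 PrE cells (2.5 CPM per kb) lay within its range. The make-up of the receptor sum differed between MUT and control embryos of E3.5. Fgfr1 gave 60.8 to 85.8% of it in the 7 WT/HET embryos and 20.9 to 46.4% in the 4 MUT embryos, and Fgfr2 gave 12.2 to 35.1% and 38.8 to 76.1%. Neither pair of ranges overlapped. At E4.5 Fgfr2 gave 61.8 to 74.9% in the 2 MUT embryos, Fgfr1 gave 51.4% or more in each EPI sum, and in PrE Fgfr3 and Fgfr4 gave medians of 48.8% and 30.6%. Ligand over summed receptors, both per kb, was 0.237 to 2.1 in E3.5 WT/HET, 0 to 0.107 in E3.5 MUT, 0.758 to 13.5 in EPI, 0 in PrE and 0.126 to 0.394 in E4.5 MUT. The E3.5 MUT embryos lay below every WT/HET embryo in this ratio, and the E4.5 MUT embryos below every EPI sum.

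**Figure D3:**
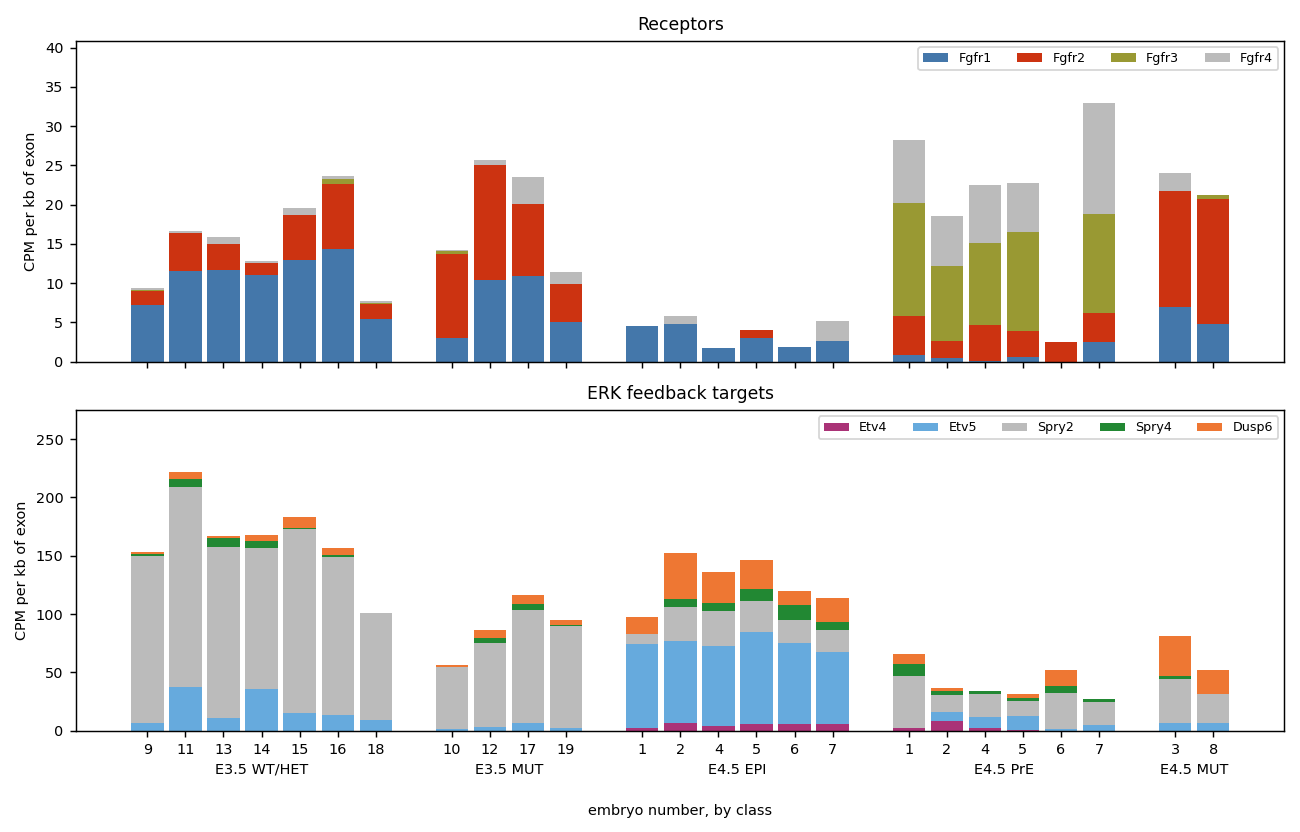
Stacked levels in CPM per kb of exon (y axes) of the 4 receptors (top) and the 5 ERK targets (bottom) in each embryo sum (x axis, embryo number within class). Fgfr1 fills most of the E3.5 WT/HET and EPI receptor bars and Fgfr2 most of the E4.5 MUT bars, and Spry2 fills most of the E3.5 target bars.

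Of the targets, Etv5 (ENSMUSG00000013089, chr16:22381309-22439719, minus strand), an ETS transcription factor, was lower in MUT at both stages. At E3.5 it was at 5.81, 13.2, 26.6 and 9.57 CPM in MUT and 26.2 to 155 CPM (median 56.4, n = 7) in WT/HET. The highest MUT embryo just reached the lowest control, and the log2 fold change was -2.44 ± 0.57 (SE, adjusted p = 0.0266). The call was lost without MUT embryo 10 (adjusted p = 0.0704), 12 (adjusted p = 0.0533) or 19 (adjusted p = 0.066) and against WT embryos alone (adjusted p = 0.0538). At E4.5 Etv5 was at 25.7 and 26.4 CPM in the MUT embryos and 251 to 321 CPM (median 287, n = 6) in EPI, without overlap. The log2 fold change was -3.51 ± 0.24 (SE, adjusted p = 6.85e-05), and the call held in each of the 16 alternatives. PrE sums were at 1.77 to 49.4 CPM (median 25.9, n = 6), and the MUT embryos fell inside that range (log2 fold change 0.06 ± 1.09 SE, adjusted p = 0.991). EPI lay above PrE in every embryo (log2 fold change 3.53 ± 0.60 SE, adjusted p = 0.00137). In whole control ICMs Etv5 was at 111 to 235 CPM (median 171, n = 6) and in MUT at 24.1 and 25.2 CPM on that scale, a log2 fold change of -2.76 ± 0.36 (SE, adjusted p = 0.00251), or -3.18 with WT controls alone (adjusted p = 0.054). Etv5 had its highest mean in EPI (287 CPM), apart from all other classes, followed by E3.5 WT/HET (76.5), E4.5 MUT (26.1), PrE (24.6) and E3.5 MUT (13.8), which overlapped with their neighbors.

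Etv4 (ENSMUSG00000017724, chr11:101769742-101785371, minus strand), the related ETS factor, was lower in E4.5 MUT than in EPI. At E3.5 it was not tested, with no count in the 7 WT/HET embryos and 1 count in the 4 MUT embryos. At E4.5 it was at 6.27 to 20.0 CPM (median 18.3, n = 6) in EPI, 0 to 27.1 CPM (median 5.06, n = 6) in PrE and 0.24 and 0 CPM in MUT embryos 3 and 8, with 4 counts in the 2 MUT embryos together. Both MUT embryos lay below every EPI sum, and the log2 fold change was -6.92 ± 1.70 (SE, adjusted p = 0.0485). Leaving out any one of 7 of the 8 embryos ended this call, with adjusted p = 0.0858 without embryo 2, 0.0778 without 3, 0.0769 without 4, 0.0915 without 5, 0.0872 without 6, 0.0947 without 7 and 0.163 without 8. It was also lost with no filter (adjusted p = 0.063), without shallow cells (adjusted p = 0.0589), with WT controls alone (adjusted p = 0.159) and in the 3-group fit (adjusted p = 0.155). Whole control ICMs had 6.94 to 24.9 CPM (median 12.3, n = 6) of Etv4, above both MUT embryos, with a log2 fold change of -6.73 ± 1.42 (SE, adjusted p = 0.0209). That call was lost without embryo 2 (adjusted p = 0.0511) and with WT controls alone (adjusted p = 0.181). EPI and PrE, with means of 15.6 and 7.42 CPM, overlapped (log2 fold change 1.05 ± 1.17 SE, adjusted p = 0.701), and the MUT and E3.5 classes all had means of 0.12 CPM or less.

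Spry2 (ENSMUSG00000022114, chr14:105891947-105896819, minus strand), a feedback inhibitor of receptor tyrosine kinase signaling, was lower in E3.5 MUT by a smaller fold. It was at 110.5, 151, 203 and 182 CPM in MUT and 190.4 to 357 CPM (median 299, n = 7) in WT/HET, and 1 MUT embryo lay within the control range. The means were 288 ± 54.3 CPM (SD, n = 7) and 162 ± 40.2 CPM (SD, n = 4), with a log2 fold change of -0.81 ± 0.20 (SE, adjusted p = 0.0319). The call was lost without any one of embryos 9, 10, 11, 12, 13, 15 and 16, with adjusted p from 0.0521 (without 16) to 0.0845 (without 10), with no filter (adjusted p = 0.0546) and with WT controls alone (adjusted p = 0.0938). At E4.5 Spry2 was at 79.4 and 51.8 CPM in MUT, 17.4 to 62.9 CPM (median 48.1, n = 6) in EPI and 25.3 to 92.5 CPM (median 40.4, n = 6) in PrE. The ranges overlapped and neither difference was called, with a log2 fold change of 0.46 ± 0.50 (SE, adjusted p = 0.713) from EPI and 0.41 ± 0.55 (SE, adjusted p = 0.831) from PrE. EPI and PrE differed by -0.09 ± 0.41 on that scale (SE, adjusted p = 0.949). E3.5 WT/HET (288 CPM) was followed by E3.5 MUT (162), E4.5 MUT (65.6), PrE (48.9) and EPI (46.1), and the 2 E3.5 classes lay above all E4.5 sums.

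Spry4 (ENSMUSG00000024427), its paralog, varied widely between embryos of each class and was called in no edgeR comparison. It was at 0.436, 20.3, 25.2 and 5.82 CPM in E3.5 MUT and 0 to 37.2 CPM (median 9.42, n = 7) in WT/HET, which overlapped (log2 fold change -0.42 ± 1.08 SE, adjusted p = 0.879). At E4.5 it was at 11.2 and 1.53 CPM in MUT, 3.25 to 64.2 CPM (median 33.3, n = 6) in EPI and 14.3 to 49.6 CPM (median 17.3, n = 6) in PrE. Both MUT embryos lay below all PrE sums and below 5 of 6 EPI sums. The log2 fold change was -2.55 ± 1.16 (SE, adjusted p = 0.269) from EPI and -1.90 ± 1.07 (SE, adjusted p = 0.413) from PrE, and between EPI and PrE it was 0.62 ± 0.59 (SE, adjusted p = 0.636). Whole control ICMs had 24.6 to 57.6 CPM (median 29, n = 6) and MUT 1.46 and 10.5 CPM, without overlap, at a log2 fold change of -2.47 ± 0.79 (SE, adjusted p = 0.0979). There DESeq2 (adjusted p = 0.00591), limma (adjusted p = 0.0335) and the edgeR fit without MUT embryo 3 (adjusted p = 0.0311) called it lower. Means ran from EPI (36.1 CPM) through PrE (23.3), E3.5 WT/HET (17.5) and E3.5 MUT (12.9) to E4.5 MUT (6.37), with overlap between all neighbors.

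Dusp6 (ENSMUSG00000019960, chr10:99263231-99267489, plus strand), the ERK phosphatase, had summed levels within the EPI range in both E4.5 MUT embryos, where Etv4 and Etv5 did not. Its level was 109 and 63.1 CPM in the 2 MUT embryos, within the EPI range of 37.3 to 123 CPM (median 72, n = 6) and above the PrE range of 0 to 45.3 CPM (median 7.53, n = 6). The log2 fold change was 0.20 ± 0.47 (SE, adjusted p = 0.897) from EPI and 2.58 ± 1.65 (SE, adjusted p = 0.496) from PrE, and neither was called. The sign of the difference from EPI turned without embryo 3 (-0.22, adjusted p = 0.919) and in the limma fit, which weights cells equally (-1.08, adjusted p = 0.438). Per cell the median was 0.473 CPM in E4.5 MUT, with an upper quartile of 113 CPM, and 67.1 CPM in EPI. Whole control ICMs had 33.8 to 51.9 CPM (median 44.1, n = 6) and MUT 60.1 and 102 CPM, without overlap, and the log2 fold change of 0.94 ± 0.30 (SE, adjusted p = 0.0927) was called by DESeq2 (adjusted p = 0.0276). Between EPI and PrE it was 2.34 ± 1.10 (SE, adjusted p = 0.235), which limma called (adjusted p = 0.00617). At E3.5 Dusp6 was at 6.83, 21.2, 22.5 and 12.1 CPM in MUT and 0 to 27.4 CPM (median 14.8, n = 7) in WT/HET, which overlapped (log2 fold change 0.30 ± 0.85 SE, adjusted p = 0.892). E4.5 MUT and EPI had means of 86.2 and 72.3 CPM and overlapped, both stood above E3.5 MUT (15.6 CPM), and E3.5 MUT, PrE (14.5) and E3.5 WT/HET (13) overlapped.

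Per kb of exon, the 5 targets summed to 164 ± 36.3 CPM per kb in E3.5 WT/HET, 88.5 ± 24.6 in E3.5 MUT, 128 ± 20.8 in EPI, 41.3 ± 14.9 in PrE and 66.7 ± 21.2 in E4.5 MUT (SD over the same embryos). The E3.5 ranges of 56.6 to 116 in MUT and 101 to 222 in WT/HET overlapped, and the E4.5 MUT range of 51.7 to 81.7 lay below the EPI range of 97.9 to 152 CPM per kb. Spry2 made up 71.9 to 93.7% of the sum in E3.5 WT/HET and 83.5 to 93.5% in E3.5 MUT, so the E3.5 totals were mostly Spry2. Etv5 made up 46.3 to 73.8% in EPI and 7.67 to 12.5% in E4.5 MUT, where Dusp6 made up 38.9 to 42.8%.

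A change of the MUT effect between stages was tested as a stage by genotype interaction, the MUT minus WT/HET difference at E4.5 less that at E3.5, with whole ICMs as E4.5 controls and each difference within one plate. Of the 10 genes, Fgfr1 and Spry2 were higher and Etv4 lower, where 2.71% of the 16410 genes tested were called higher and 2.75% lower. For Fgfr1 the interaction was 2.07 ± 0.55 (SE, adjusted p = 0.0321), from a difference of -0.52 (adjusted p = 0.443) at E3.5 and 1.57 (adjusted p = 0.0588) at E4.5. For Spry2 it was 1.19 ± 0.32 (SE, adjusted p = 0.0358), from -0.81 (adjusted p = 0.0319) and 0.40 (adjusted p = 0.491). The Etv4 interaction of -8.67 ± 2.18 (SE, adjusted p = 0.0355) has no firm size, since E3.5 held 1 Etv4 count in all and the fitted value depends on the prior count. Fgfr1 was lost without embryo 3 (adjusted p = 0.155) or 19 (adjusted p = 0.061). Spry2 was lost without any one of embryos 2, 3, 5, 7, 9, 10, 11, 12, 13 and 15, with adjusted p from 0.0509 (without 5) to 0.266 (without 3), with no filter (adjusted p = 0.0541) and in the limma fit (adjusted p = 0.0917). Etv4 was lost without embryo 2 (adjusted p = 0.050) or 8 (adjusted p = 0.0675) and with no filter (adjusted p = 0.0594), without shallow cells (adjusted p = 1.00), and also without embryo 17, which held the only E3.5 count (adjusted p = 1.00). Against WT embryos alone none of the 3 was called (adjusted p = 0.147 for Fgfr1, 0.134 for Spry2 and 0.15 for Etv4). The interactions of Fgf4 (2.71, adjusted p = 0.203), Fgfr2 (1.73, adjusted p = 0.205) and Etv5 (-0.34, adjusted p = 0.921) were not called, except for Fgf4 without embryo 12 (4.26, adjusted p = 0.0348). Those of Fgfr3 (-3.53, adjusted p = 0.55), Fgfr4 (-3.42, adjusted p = 0.348), Spry4 (-2.06, adjusted p = 0.524) and Dusp6 (0.62, adjusted p = 0.875) were not called either.

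In single cells, Fgf4 had at least 1 count in 39 of 58 E3.5 WT/HET cells, or 67.2% (95% Clopper-Pearson interval 53.7 to 79%), and in 8 of 29 E3.5 MUT cells, or 27.6% (95% Clopper-Pearson interval 12.7 to 47.2%). At E4.5 it was detected in 25 of 37 EPI cells, or 67.6% (95% Clopper-Pearson interval 50.2 to 82%), and 7 of 19 MUT cells, or 36.8% (95% Clopper-Pearson interval 16.3 to 61.6%). No PrE cell had a count (0 of 29 cells, which allows a share of up to 10.3% of cells with a count, taking 3 counts as the limit). Such intervals cover counting error only, and cells of an embryo are not independent. By embryo, the share was 42.9% or more in E3.5 WT/HET and from 0 to 50% in MUT, and the groups overlapped. After thinning to 500000 counts per cell, which left out 2 WT/HET cells and 1 MUT cell of E3.5 as too shallow, Fgf4 was detected in 36 of 56 WT/HET and 5 of 28 MUT cells.

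Receptors were detected in nearly all cells outside EPI. A count of any receptor was found in 58 of 58 E3.5 WT/HET, 29 of 29 E3.5 MUT, 28 of 29 PrE and 19 of 19 E4.5 MUT cells, and in 26 of 37 EPI cells. Fgfr1 was detected in 58 of 58 E3.5 WT/HET, 28 of 29 E3.5 MUT, 23 of 37 EPI, 11 of 29 PrE and 16 of 19 E4.5 MUT cells. Fgfr2 was detected in 49 of 58, 29 of 29, 2 of 37, 24 of 29 and 17 of 19 cells of the same classes, with a median of 133 CPM per cell in E4.5 MUT and 46 in PrE. Fgfr3 was a receptor of PrE cells, with counts in 21 of 29 of them and in 3, 1, 1 and 1 cells of E3.5 WT/HET, E3.5 MUT, EPI and E4.5 MUT. Fgfr4 was detected in 19 of 29 PrE, 15 of 29 E3.5 MUT, 13 of 58 E3.5 WT/HET, 6 of 37 EPI and 3 of 19 E4.5 MUT cells. Fgfr3 and Fgfr4 were found together in 15 PrE cells and in no cell of another class.

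The receptor with the highest level per kb in a cell was Fgfr1 in most E3.5 control cells and Fgfr2 in most MUT cells. In E3.5 WT/HET it was Fgfr1 in 50 and Fgfr2 in 8 of 58 cells, and in E3.5 MUT Fgfr1 in 11 and Fgfr2 in 18 of 29 cells. In E4.5 MUT it was Fgfr2 in 15 of 19 cells, Fgfr1 in 3 and Fgfr3 in 1. PrE differed from both, with Fgfr3 highest in 16 of 29 cells, Fgfr4 in 8 and Fgfr2 in 4. In EPI it was Fgfr1 in 23 of 37 cells, as in most E3.5 control cells, and Fgfr4 in 3, while 11 EPI cells had no receptor count.

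Since every cell of E3.5 WT/HET, E3.5 MUT and E4.5 MUT had a receptor count, the 39, 8 and 7 Fgf4-positive cells there necessarily had one. In EPI, 18 of 25 Fgf4-positive cells had a receptor count and 7 had none, and of the 12 other EPI cells 8 had one and 4 had none. At 10 CPM or more as detected, 11 of 24 EPI cells with Fgf4 had no receptor, and of the EPI cells without Fgf4 9 had one and 4 had none. No cell of the other classes had Fgf4 and no receptor, where nearly all cells had a receptor.

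**Figure D4:**
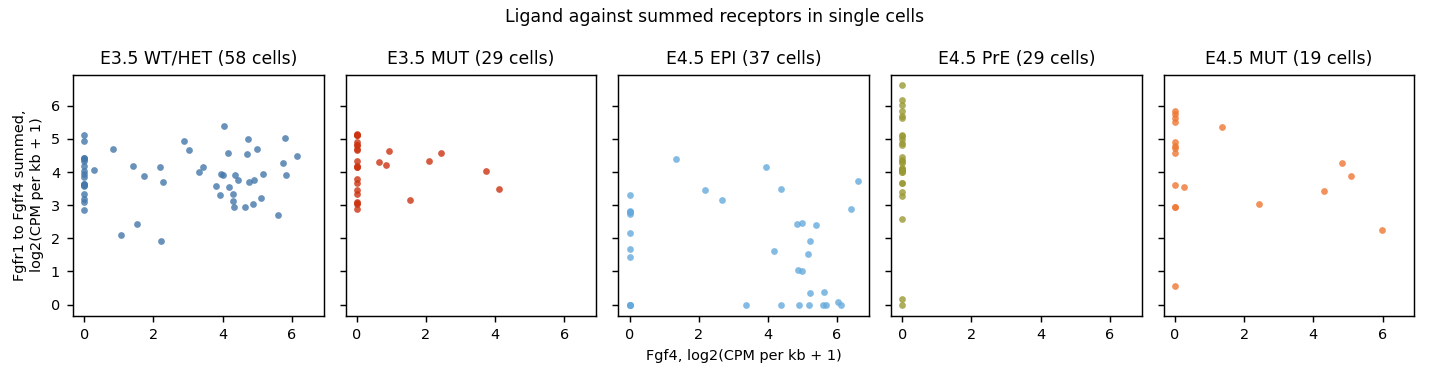
Fgf4 (x axes) against the sum of the 4 receptors (y axes) in single cells, both as log2(CPM per kb + 1), with one panel per class and one point per cell. All 29 PrE cells lie at Fgf4 0, and 7 EPI cells lie at a receptor sum of 0 with Fgf4 detected.

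Over the 58 E3.5 WT/HET cells, Fgf4 correlated with Etv5 at Pearson r = 0.56 and Spearman rho = 0.64 on log2(CPM + 1), and at r = 0.52 once the mean of each embryo was taken away. With Spry4 r was 0.41 (within embryos 0.34), and with Fgfr2 it was -0.37 (within embryos -0.35). In the 29 E3.5 MUT cells r was -0.42 between Fgf4 and Fgfr2 and 0.10 between Fgf4 and Etv5. With Spry2, Spry4 and Dusp6, r of Fgf4 was 0.39, 0.33 and 0.38 in E3.5 MUT. The same 3 values were 0.29, 0.41 and 0.09 in E3.5 WT/HET. In the 37 EPI cells r was 0.06 between Fgf4 and Etv5. These are descriptions of cells that share embryos, plates and sparse counts, and carry no test. The 39 Fgf4-positive E3.5 WT/HET cells averaged 97.7 CPM of Etv5 and the 19 others 26.1 CPM, at median depths of 1354709 and 1241390 counts. Of 6 embryos with at least 2 cells of each kind, Etv5 was higher in the Fgf4-positive cells of 4. In E4.5 MUT the 7 Fgf4-positive cells averaged 80.0 CPM of Fgfr2 and the 12 others 207 CPM, with the lower mean of log2(CPM + 1) in the Fgf4-positive cells of both embryos.

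Among the targets, Etv5 was detected in 54 of 58 E3.5 WT/HET, 20 of 29 E3.5 MUT, 36 of 37 EPI, 18 of 29 PrE and 8 of 19 E4.5 MUT cells. Dusp6 was detected in 29 of 58, 19 of 29, 25 of 37, 8 of 29 and 10 of 19 cells, and Spry2 in 58 of 58, 29 of 29, 36 of 37, 29 of 29 and 18 of 19 cells of the same classes. Dusp6 without a count of Etv4 or Etv5 was seen in 5 of 19 E4.5 MUT, 3 of 29 E3.5 MUT, 2 of 58 E3.5 WT/HET, 1 of 29 PrE and 0 of 37 EPI cells. With Etv5 in 36 of 37 EPI cells, almost no EPI cell could be of this kind. Of the 10 E4.5 MUT cells with Dusp6, 5 had Etv5 too, and whether the 2 genes go together in cells was not tested. All 5 targets were detected together in 13 EPI cells, 2 PrE cells and 1 E4.5 MUT cell, and the median number per cell was 4, 3 and 2.

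Around the 10 genes, wider lists of the pathway were counted. Of 21 other FGF ligands, Fgf10 and Fgf3 were the 2 that reached a class mean of 10 CPM. Fgf10 had means of 88.5 CPM in E3.5 WT/HET, 14.8 in E3.5 MUT, 14 in EPI, 96.6 in PrE and 49.8 in E4.5 MUT, and Fgf3 had 67.5 CPM in PrE and 4.13 or less elsewhere. None of these ligands was called by edgeR in a comparison with MUT. An unadjusted p under 0.05 was reached by 1 of 3 tested at E3.5, 1 of 5 against EPI and 1 of 3 against PrE. Against whole control ICMs it was 0 of 4. Over all genes tested, 2588 of 12075 reached that p at E3.5, 2455 of 12953 against EPI and 2015 of 12246 against PrE. Against whole control ICMs 3058 of 14105 did. Fgf3 was lower in EPI than PrE (log2 fold change -6.97, adjusted p = 0.00472). Adaptors and the RAS-ERK cascade (28 genes) had 0 higher and 1 lower of 27 tested at E3.5, the RAS GTPase Nras (log2 fold change -0.72, adjusted p = 0.0376). Of all genes tested there, 3.2% were called higher and 2.98% lower. In E4.5 MUT edgeR called 0 of 27 against EPI and 0 of 27 against PrE, with 1 and 5 at an unadjusted p under 0.05, and 0 of 28 against whole ICMs, with 5. Shares called over all genes tested were 2.3% higher and 2.62% lower against EPI and 1.74% and 2.07% against PrE. Against whole ICMs they were 3.1% and 4.27%. In EPI against PrE there were 0 higher and 1 lower of 26, beside 4.61% and 5.2% of all genes tested. The lower gene was Lamtor3, which tethers MEK and ERK scaffolds to late endosomes (log2 fold change -1.57, adjusted p = 0.0013). Median log2 fold changes of this list were -0.17, -0.27 and -0.32 in the 3 comparisons, next to -0.02, -0.03 and 0.05 over all genes tested.

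Co-receptors and heparan sulfate genes (27) had 1 higher and 1 lower of 16 tested at E3.5, beside 3.2% and 2.98% of all genes tested. Gpc4, a heparan sulfate proteoglycan, was higher at 70.3 CPM in MUT and 5.22 in WT/HET (log2 fold change 3.77, adjusted p = 0.000266), and Fgfrl1, a receptor without a kinase domain, was at 0 in MUT and 2.64 CPM in WT/HET (adjusted p = 0.032). WT/HET embryos ran from 0 to 4.17 CPM of Fgfrl1, so the groups overlapped at 0. In E4.5 MUT there were 1 higher and 2 lower of 22 tested against EPI, beside 2.3% and 2.62% of all genes tested. Against PrE there were 0 higher and 3 lower of 20 tested, beside 1.74% and 2.07%. Ext1, which elongates heparan sulfate, was lower in both, at 0.111 CPM in MUT, 26.4 in EPI (adjusted p = 0.0259) and 43.8 in PrE (adjusted p = 0.00784). Sdc4, a cell surface proteoglycan, was higher in MUT than EPI at 1475 and 87 CPM (log2 fold change 4.04, adjusted p = 0.0104), and its relative Sdc1 was at 0 in MUT and 15.7 CPM in EPI (adjusted p = 0.0155). Flrt3, which binds FGF receptors, was at 0.161 CPM in MUT and 739 in PrE (adjusted p = 0.000116), and Klb, a co-receptor of endocrine FGFs, at 19.9 and 126 CPM (log2 fold change -2.68, adjusted p = 0.0148). The medians of this list were -0.39 at E3.5, -0.07 against EPI and -0.64 against PrE.

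Against whole WT/HET ICMs of E4.5 this list had 2 higher and 3 lower of 23 tested, beside 3.1% and 4.27% of all genes tested. Sdc4 (log2 fold change 2.27, adjusted p = 0.00152) and Flrt1, which had no count in the controls (adjusted p = 0.0497), were higher. Flrt3 (adjusted p = 0.000632), Ext1 (adjusted p = 0.00185) and Sdc1 (adjusted p = 0.00288) were lower. In EPI against PrE there were 1 higher and 3 lower of 15 tested, beside 4.61% and 5.2% of all genes tested. Fgfbp1, a secreted protein that binds FGFs, was at 94.5 CPM in EPI and 0 in PrE (adjusted p = 0.000148). Sdc4 (log2 fold change -2.85, adjusted p = 0.00245), the heparan sulfate sulfotransferase Hs3st1 (-6.31, adjusted p = 0.00983) and Flrt3 (-5.66, adjusted p = 0.0161) were lower. The interaction was called for 4 of 24, positive for Flrt1 (adjusted p = 0.0173) and Sdc4 (2.22, adjusted p = 0.0293) and negative for Gpc4 (-4.68, adjusted p = 0.000664) and Ext1 (adjusted p = 0.0239). Over all genes tested, it was called positive for 2.71% and negative for 2.75%.

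Other ERK feedback and response genes (38) had 1 higher and 2 lower of 24 tested at E3.5. Of all genes tested there, 3.2% were called higher and 2.98% lower. Dusp5, a nuclear ERK phosphatase, was at 0 in MUT and 5.2 CPM in WT/HET (adjusted p = 0.0229), Myc was lower (log2 fold change -2.93, adjusted p = 0.0272) and Jun higher (log2 fold change 2.27, adjusted p = 0.0426). WT/HET embryos ran from 0 to 10.4 CPM of Dusp5, which overlapped with MUT at 0. Jun overlapped too, at 7.85 to 119 CPM in MUT and 5.26 to 20.3 in WT/HET. Myc did not, at 1.98 to 9.31 and 11.7 to 115 CPM. In E4.5 MUT there were 0 higher and 1 lower of 29 tested against EPI, beside 2.3% and 2.62% of all genes tested. The lower gene was the ETS factor Etv1, at 0.030 CPM in MUT and 51.8 in EPI (adjusted p = 0.00186). Against PrE edgeR called 0 of 29, with 7 at an unadjusted p under 0.05, beside 2015 of all 12246 genes tested. Of these 12246 genes, 1.74% were called higher and 2.07% lower. Against whole WT/HET ICMs there were 2 higher and 1 lower of 32 tested, beside 3.1% and 4.27% of all genes tested. Etv1 was lower (adjusted p = 0.00307), and Errfi1, an inhibitor of EGF receptors, and Dusp14 were higher (log2 fold change 2.73, adjusted p = 0.0176 and log2 fold change 2.78, adjusted p = 0.0492). Scaled over the 25 sums, Dusp14 was at 29.3 and 205 CPM in the 2 MUT embryos. Its range was 6.27 to 43.1 CPM in EPI and 0 to 29.5 CPM in PrE, so the lower MUT embryo lay within both. In EPI against PrE there were 1 higher and 4 lower of 25, beside 4.61% and 5.2% of all genes tested. Etv1 was higher at 51.8 CPM in EPI and 0.175 in PrE (adjusted p = 0.00044), and the 3 lower genes of smallest adjusted p were Phlda1 (log2 fold change -3.39, adjusted p = 0.0141) and the AP-1 factors Junb (14.4 CPM in EPI and 58.1 in PrE, adjusted p = 0.0176) and Jun (log2 fold change -2.61, adjusted p = 0.0203). The interaction was called for 2 of 34, Myc (4.38, adjusted p = 0.00676) and Errfi1 (3.39, adjusted p = 0.0244), both positive. Over all genes tested, it was called positive for 2.71% and negative for 2.75%. The medians of this list were -0.08 at E3.5, 0.66 against EPI and -0.13 against PrE.

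The genes whose levels were most like those of Fgf4, Fgfr2 and Dusp6 over the 25 sums were sought among 6006 genes of 20 CPM or more, by Pearson's r of log2(CPM + 1) as a description of sums that share embryos and classes. For Fgf4 the 4 highest were Rbpms2 (0.868), Tdgf1 (0.866), Klf2 (0.864) and Zfp42 (0.842). For Fgfr2 they were Cdc42ep1 (0.908), Timd2 (0.902), St3gal6 (0.886), Slc46a1 (0.885) and Lamp1 (0.883). For Dusp6, where likeness was lower, they were Zswim1 (0.799), Higd2a (0.741), Unc119b (0.728), Phc1 (0.727) and Dnajc17 (0.716).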

How the data were processed

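The files hold raw read counts per gene for each single cell, deposited by the authors. Per the labels, the submitters' processing notes name STAR and HTSeq, with reads placed on mm10. Over all cells, 32.3% of the reads listed were not uniquely aligned, 8.65% ambiguous and 4.72% outside genes, and these stayed out of library sizes and tests. The authors compared single cells with scde. Here cells were summed per embryo, using the embryo numbers in the study's supplementary sample table, because cells of an embryo are not independent. Cells were picked singly, no doublet caller was run, and 0 pairs of cells held identical counts.

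Sums were tested with edgeR 4.0.16 in R 4.3.3 (glmQLFit, TMM, filterByExpr, Benjamini-Hochberg over all tested genes, threshold 0.05). The SE is the log2 fold change divided by the square root of F. DESeq2 1.42.0, limma 3.58.1 and other alternatives were run too. The scripts were tested on simulated data. Shares of cells, thinning and promoter windows were computed with Python 3.11.15, numpy 2.4.6, scipy 1.17.1 and pandas 2.3.3. Of the 49671 gene IDs, 49412 matched GENCODE M21, which gave symbols and exon lengths.

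The 10 genes and the wider lists were chosen with earlier results of these data known. All 10 were named in each comparison that tested them. Of each wider list the called genes with the smallest adjusted p were named, at most 3 in each direction, and for Fgf4, Fgfr2 and Dusp6 the 5 genes most like them, of which 1 is not reported here. EPI and PrE sums of one number come from the same embryo and are therefore paired, and their deviations from the class means correlated at 0.00894 to 0.0661 over genes.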

Additional observations from a re-analysis of the deposited data

Results flagged for a closer look

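In 38 groups of 4, 6 or 7 embryos, 10 levels stood far from the rest of their group by Dixon's ratio. For well spread values chance gives about 1 in 20 groups (1.9 of 38), but that rate does not hold for sparse counts, where 1 embryo with counts among embryos at 0 always stands apart, as for Fgfr3 in E3.5 MUT and EPI and Etv4 in E3.5 MUT. Of the ligand, Fgf4 was at 86.5 CPM in E3.5 WT/HET embryo 14, with 43.9 CPM in the next embryo. Of the receptors, Fgfr1 was at 24.7 CPM in the PrE sum of embryo 7, with 7.74 in the next. Fgfr2 was at 10.4 CPM in the EPI sum of embryo 5, with all of its counts from 1 cell. Fgfr3 was at 4.07 CPM in E3.5 WT/HET embryo 16, at 2.47 CPM in E3.5 MUT embryo 10, at 0.0809 CPM (1 count) in the EPI sum of embryo 7, and at 0 in the 2-cell PrE sum of embryo 6, where the other 5 PrE sums were at 68.3 CPM or more.

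Of the targets, Etv4 was at 0.0861 CPM (1 count) in E3.5 MUT embryo 17 and at 27.1 CPM in the PrE sum of embryo 2, with 7.34 in the next. Spry4 was at 49.6 CPM in the PrE sum of embryo 1, with 25.9 in the next.

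The MUT effect differed between E4.5 and E3.5, by the stage by genotype interaction in edgeR, for 3 of the 10 genes. On the log2 scale the interaction was 2.07 for Fgfr1, 1.19 for Spry2 and -8.67 for Etv4, the last without a firm size because E3.5 held 1 count.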

How the results depend on the processing

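Over all comparisons, 910 of 1007 refitted log2 fold changes of the 10 genes kept their direction and side of the threshold, 57 lost a call, 24 gained one and 16 changed sign, none of these past the threshold. The number of circuit genes called was 3 at E3.5 (1 to 3 with an embryo left out). In E4.5 MUT against EPI it was 2 (1 to 2 with an embryo left out, and 1 with no filter, without shallow cells or with WT controls alone). In MUT against PrE it was 1 (0 to 1 with an embryo left out, 2 with DESeq2, 0 with WT controls alone), and in MUT against whole WT/HET ICMs 3 (2 to 4 with an embryo left out, 6 with DESeq2, 0 with WT controls alone). In EPI against PrE it was 2 (2 to 3 with an embryo left out, 5 in the limma fit), and for the interaction 3 (1 to 3 with an embryo left out, 1 with no filter, 0 with WT controls alone). Over all genes, 746 of 12075 were called at E3.5, and 482 to 882 with an embryo left out. The latter range was 226 to 774 against EPI, 169 to 534 against PrE and 524 to 1061 against whole ICMs. It was 649 to 916 in EPI against PrE and 562 to 1015 for the interaction. Against EPI the main fit called 637 of 12953 genes, and 633 of 19005 with no filter and 577 of 12883 without shallow cells. DESeq2 took the number from 466 to 1223 of 12246 against PrE and from 1039 to 2407 of 14105 against whole ICMs. In EPI against PrE it was 958 of 9762, and 1824 in the limma fit. WT controls alone gave 48 of 11644 against EPI and 27 of 10667 against PrE. They gave 25 of 12048 against whole ICMs and 470 of 15109 for the interaction. WT controls alone leave fewer samples, and for the others the cause was not tested.

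With the replicate block, that is the embryo as a block in EPI against PrE, 3 genes were called in place of 2, since Fgfr2 moved from -4.37 to -9.01 (adjusted p = 0.0203). The block changed no other call of the 10 genes, and over the 9762 genes tested the calls went from 958 to 840. The sign of Spry2 turned there, to 0.0067 under the block, and ran from -0.29 to 0.37 with an embryo left out, positive without embryo 1 or 6.

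The other changes of sign were as follows. Spry4 at E3.5 was 0.0574 with WT, HET and MUT as 3 groups. In MUT against EPI, Fgfr4 was -0.17 and Dusp6 -1.08 in the limma fit, and both turned without embryo 3 (from -3.65 to 2.38 and from -0.22 to 0.54 with an embryo left out). In MUT against PrE, Etv5 was -0.22 and Spry2 -0.0105 in the limma fit, and Etv5 turned without embryo 1 or 6 (from -0.18 to 0.39 with an embryo left out) and was -0.0764 with WT controls alone. For the interaction, Dusp6 was -0.61 in the limma fit, Fgfr3 2.57 without embryo 10 (from -11.38 to 2.57 with an embryo left out) and Etv5 0.18 without embryo 17.

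The limma fit moved the median of all genes to -0.23 at E3.5 and to -0.20, -0.24 and -0.17 in the E4.5 MUT comparisons with EPI, PrE and whole ICMs. Scaling by library total in place of TMM left 49 of 50 class means within 1 SD, the exception being Etv5 in EPI at 311 CPM. A threshold of 5 counts, of 10 CPM or thinning left 133 of 150 shares of cells within their 95% interval. Leaving out the PrE sum of embryo 6 and measuring exons within RefSeq bounds were alternatives chosen after seeing the data. The 2 E4.5 MUT embryos limit every comparison with them.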
